A study of Homo sapiens with 120 samples.

Results

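The genes of the respiratory chain were followed through the differentiation of H1 human embryonic stem cells, an established pluripotent line. Nuclear genes were taken by name (NDUFA, NDUFB, NDUFC, NDUFS and NDUFV followed by a digit, UQCR, COX4 to COX8, ATP5F, ATP5M, ATP5P and SDHA to SDHD, without pseudogene names) and mitochondrial genes by the starts MT-ND, MT-CO, MT-ATP and MT-CYB. This gave 107 of 62703 genes, of which 94 were nuclear and 13 mitochondrial. Of the nuclear names 86 encode or are close relatives of subunits, 36 for complex I, 4 for complex II, 9 for complex III, 19 for complex IV and 18 for complex V, while 6 are non-coding transcripts beside such genes and 2 are readthrough transcripts. The mitochondrial genes encode 7 subunits of complex I, 1 of complex III, 3 of complex IV and 2 of complex V.

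The series holds 120 poly(A) RNA-seq libraries, 2 to each of 60 groups. In the differentiation arm, KO cells, ΔATG cells (labelled DATG) and unedited WT cells were sampled as stem cells at day 0 and on days 1 to 5 of BMP4 treatment towards mesoderm, of SMADi neural induction, or of a definitive endoderm kit (Endo), which makes 96 libraries. In the overexpression arm, stem cells carrying lncPRESS1, lncPRESS1 labelled DATG, lncSIRP or an empty vector were sampled at the stages labelled early, middle and late, which makes 24 libraries. The edited gene is LNCPRESS1, a long non-coding RNA gene active in stem cells, and ΔATG denotes the same gene without a start codon. The sources used here do not say how many clones stand for an edit, so that genotype and clone cannot be told apart, nor do they say that the libraries of a group came from separate cultures. The p-values therefore measure the spread between these libraries, which may be technical.

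The respiratory chain moves electrons from NADH (complex I) and succinate (complex II) through complex III to oxygen at complex IV, and complex V, the ATP synthase, uses the proton gradient that results. Most subunits are made from nuclear genes and imported, but the membrane core of complexes I, III, IV and V is made inside the organelle from mitochondrial DNA, so that both genomes have to supply each of these complexes. Complex II is wholly nuclear. Pluripotent stem cells are known for a strong reliance on glycolysis, and the balance shifts as they differentiate.

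Library depth was 38298603 to 71219834 estimated counts. LNCPRESS1 itself stood at 5.60 to 13.2 CPM (counts scaled to library size by TMM) in KO cells at day 0, at 35.2 to 53.1 CPM in ΔATG cells and at 21.4 to 40.6 CPM in WT cells, so the KO label goes with a lower level and not with absence. Lineage markers followed the protocols in WT cells. At day 5, 4 definitive endoderm markers summed to 13365 to 13761 CPM in Endo against 1.19 to 2.83 CPM at day 0, 4 neuroectoderm markers to 221 to 247 CPM in SMADi against 4.78 to 6.04 CPM, and 4 mesoderm and streak markers to 247 to 282 CPM in BMP4 against 1.55 to 1.59 CPM. In the overexpression arm the libraries labelled middle lncPRESS1 and middle lncSIRP stood apart. Stem cell markers summed to 276 to 339 CPM in them against 2875 to 2990 CPM in the middle vector libraries, and collagen-type fibroblast markers to 2684 to 3755 CPM against 251 to 261 CPM. Those results are therefore given with and without the middle stage.

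Promoter sequences are shown for 4 nuclear genes on which the SMADi results below turn, as the 250 bases before the RefSeq transcription start (GRCh38.p14), on the strand of the gene. COX5B and ATP5PD were lower in both edited lines, while NDUFS4 and NDUFS1 were higher in both. Capitals mark CCGGAAGT or its reverse complement ACTTCCGG, the core that ETS factors such as GABP (NRF-2) are known to bind, and, in COX5B, GCATGCGC, the reverse complement of the core GCGCATGC of NRF1, a factor known for its many targets among respiratory chain genes. The windows are chr2:97645812-97646061 (plus strand) for COX5B, chr17:75046970-75047219 (minus) for ATP5PD, chr5:53560389-53560638 (plus) for NDUFS4 and chr2:206159445-206159694 (minus) for NDUFS1.
COX5B: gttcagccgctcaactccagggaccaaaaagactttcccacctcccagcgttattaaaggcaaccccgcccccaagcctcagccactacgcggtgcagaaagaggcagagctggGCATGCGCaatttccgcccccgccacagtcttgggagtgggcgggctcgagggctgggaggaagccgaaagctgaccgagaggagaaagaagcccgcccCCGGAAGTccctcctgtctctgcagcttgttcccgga
ATP5PD: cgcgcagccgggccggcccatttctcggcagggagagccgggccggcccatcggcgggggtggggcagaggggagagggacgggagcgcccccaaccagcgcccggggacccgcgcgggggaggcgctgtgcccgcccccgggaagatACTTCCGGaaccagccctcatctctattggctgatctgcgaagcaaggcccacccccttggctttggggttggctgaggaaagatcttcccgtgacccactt
NDUFS4: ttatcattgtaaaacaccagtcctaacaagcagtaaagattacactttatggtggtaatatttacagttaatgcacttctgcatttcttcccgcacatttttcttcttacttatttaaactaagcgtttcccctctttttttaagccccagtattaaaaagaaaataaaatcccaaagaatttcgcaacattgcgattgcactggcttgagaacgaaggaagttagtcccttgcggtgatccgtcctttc
NDUFS1: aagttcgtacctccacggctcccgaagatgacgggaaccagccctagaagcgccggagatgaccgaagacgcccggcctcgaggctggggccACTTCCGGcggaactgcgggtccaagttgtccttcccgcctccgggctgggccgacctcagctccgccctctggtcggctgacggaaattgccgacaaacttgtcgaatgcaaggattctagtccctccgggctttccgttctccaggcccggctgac
The ETS core was found in COX5B and ATP5PD and also in NDUFS1, and not in these bases of NDUFS4. Among these 4 genes, chosen by their direction in SMADi, it was thus carried by lower and by higher ones. Of the 86 subunit genes 68 had a RefSeq promoter entry, read over 300 bases (250 before and 50 after the start) on both strands. Of these, 10 (14.7%) held the ETS core, against 1211 of all 27305 promoters (4.44%). The NRF1 core was in 13 (19.1%), against 894 of all promoters (3.27%). The YY1 core AAGATGGC was in 11 (16.2%), against 828 (3.03%), and at least 1 of these motifs, none of which holds another, was in 28 (41.2%), against 2715 (9.94%). NDUFS4 held the YY1 core in the 300 bases read, though not in the 250 shown. A match describes the letters only. The full set of promoters was not limited to coding or expressed genes. The NRF1 and YY1 cores were chosen after longer forms had been counted.

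Except for MT-ND6, the mitochondrial genes gave more RNA per length than any nuclear subunit gene. At day 0 in WT cells, the level per kilobase of transcript was between 235 CPM per kb for MT-ND6 and 10853 CPM per kb for MT-CO3, a core subunit of complex IV. The nuclear subunits reached 793 CPM per kb at most, for ATP5F1B, the catalytic beta subunit of the ATP synthase, followed by 686 CPM per kb for its partner alpha subunit ATP5F1A. Length here was the median over a gene's coding transcripts, 0.856 kb for ATP5F1B and 0.91 kb for ATP5F1A. The size and rank of nuclear levels depend on that choice. Several isoforms known from muscle, lung or testis stood near 0, with COX7A1 at 0.27 CPM per kb, COX4I2 at 0.49 CPM per kb, COX6A2 at 0.55 CPM per kb and COX7B2 at 0, while the testis-type COX6B2 was at 4.31 CPM per kb. The overlapping pairs MT-ATP8 with MT-ATP6 and MT-ND4L with MT-ND4 share transcript, MT-ND6 lies alone on the other strand (MT:14149-14673), and nuclear copies such as MTCO1P12 can take reads of MT-CO1, so single mitochondrial levels carry that uncertainty.

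Between libraries the mitochondrial share also moved more. The 13 mitochondrial genes summed to between 19989 and 74693 CPM over the 120 libraries, a 3.74-fold range, and the 94 nuclear names to between 6067 and 10032 CPM, a 1.65-fold range. In unscaled counts this was 2.08% to 7.39% of a library for the mitochondrial genes and 0.597% to 1.02% for the nuclear ones, and the ratio of mitochondrial to nuclear RNA ran from 2.41 to 8.66. Part of this range goes with the letter of the library and not with the group. In 18 of 18 day 0 and BMP4 groups the library labelled b had the higher mitochondrial sum, by 1.24-fold to 1.85-fold, and in 17 of 18 the higher nuclear sum, with ratios of b over a between 0.968 and 1.20. In SMADi, b was higher for the mitochondrial sum in 8 of 15 groups, in Endo in 8 of 15 and in the overexpression arm in 5 of 12. What the letters stand for is not given in the sources used here.

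**Figure D1:**
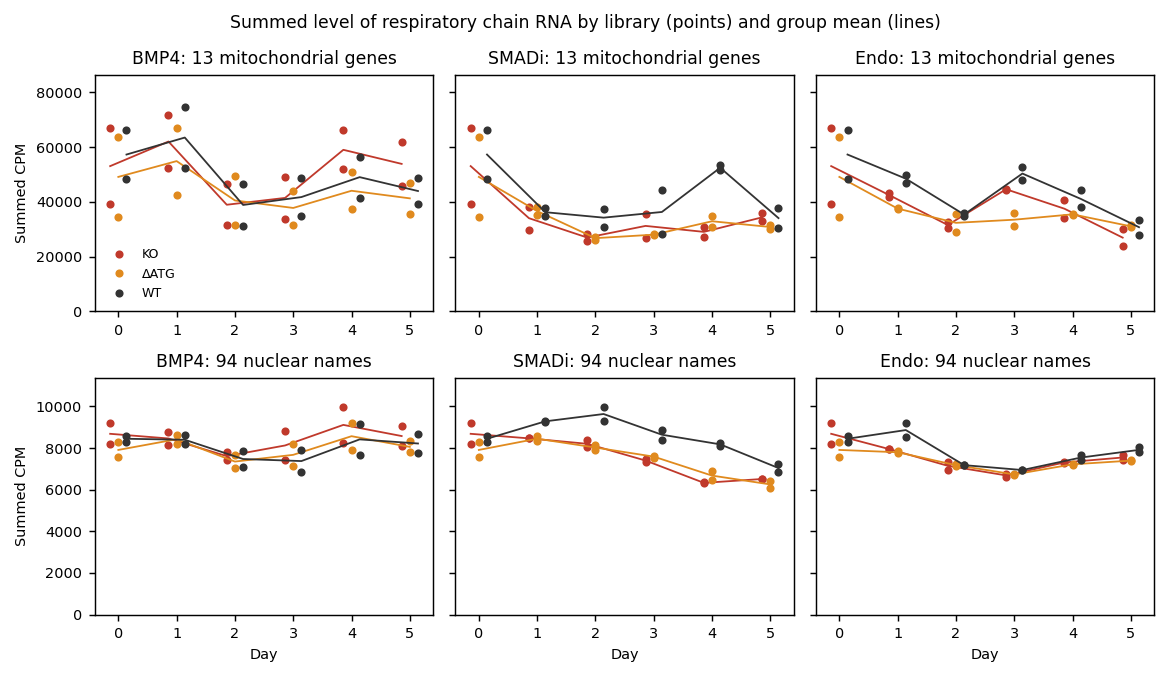
Summed CPM (vertical axis) of the 13 mitochondrial genes (top) and of the 94 nuclear names (bottom) by day, for the BMP4, SMADi and Endo protocols. Points are libraries in KO, ΔATG and WT cells and lines join group means. The mitochondrial points scatter widely at day 0 and in BMP4, and the SMADi nuclear sums of both edited lines lie below WT on each of days 1 to 5.

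In unedited cells the called mitochondrial genes were all lower at day 5, in each of the 3 lineages. The called nuclear members split both ways in BMP4 and Endo and were mostly lower in SMADi. At day 5 the mitochondrial sum was 39150 and 48722 CPM in BMP4, 30386 and 37711 CPM in SMADi, and 27981 and 33465 CPM in Endo, against 48249 and 66264 CPM at day 0. The day 5 libraries lay below both day 0 libraries in SMADi and Endo. In BMP4 they overlapped them, although each lay below the day 0 library of its own letter. The shift by letter ran through the day 0 and BMP4 libraries and not through those of SMADi or Endo. A difference between these sets of libraries therefore cannot be told apart from protocol where SMADi or Endo is set against day 0 or BMP4. The nuclear sum was 7778 and 8659 CPM in BMP4, 6861 and 7218 CPM in SMADi and 7793 and 8033 CPM in Endo, against 8585 and 8308 CPM at day 0. RNA from fewer cells of a type and less RNA per cell cannot be told apart in these bulk samples.

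Gene by gene, edgeR's quasi-likelihood test with Benjamini-Hochberg adjustment over all genes (call at an adjusted p under 0.05) found 0 mitochondrial genes higher at day 5 in any lineage. In Endo all 13 were lower (32.2% of all genes tested were called lower and 63.4% either way), in SMADi 9 (26.7% and 53.5% of all genes) and in BMP4 7 (22.2% and 45.0%). Counted at an unadjusted p under 0.05 in either direction, the numbers were 13, 9 and 9, and DESeq2 called 13, 9 and 7. The median log2 fold change of the 13 was -0.89 in Endo, -0.95 in SMADi and -0.59 in BMP4, against -0.05, 0.00 and -0.00 over all genes. The nuclear members split both ways in Endo and BMP4 and were mostly lower in SMADi. In Endo 19 of 91 tested were higher and 28 lower (31.2% and 32.2% of all genes), with a median of -0.06. In SMADi 6 were higher and 46 lower (26.8% and 26.7% of all genes), with a median of -0.31, and in BMP4 13 were higher and 13 lower (22.9% and 22.2%), with a median of 0.03. With the letter as a block in the day 0 and BMP4 libraries, the BMP4 comparison called 24 nuclear members higher and 18 lower and 9 mitochondrial genes lower (50.1% of all genes).

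The mitochondrial genes did not move as a unit. MT-CYB, the only mitochondrial subunit of complex III, had 1210 and 1370 CPM at day 5 of BMP4, 1543 and 2412 CPM in SMADi and 1571 and 1944 CPM in Endo, against 3530 and 5012 CPM at day 0. All 6 day 5 libraries lay below the day 0 ones, with log2 fold changes of -1.73 ± 0.27 (SE, adjusted p = 4.4e-07), -1.11 ± 0.27 (adjusted p = 0.000395) and -1.28 ± 0.27 (adjusted p = 4.26e-05). MT-ND1, a core membrane subunit of complex I, had 2525 and 2675 CPM in BMP4, 2311 and 3004 CPM in SMADi and 1022 and 1257 CPM in Endo, against 2255 and 2404 CPM at day 0. The Endo libraries lay below all the others (log2 fold change against day 0 of -1.03 ± 0.17, adjusted p = 4.21e-07), also when set against SMADi directly (-1.22 ± 0.17, adjusted p = 9.63e-09).

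MT-CO1, the catalytic subunit of complex IV, had 14136 and 20161 CPM in BMP4, 9414 and 11788 CPM in SMADi and 8314 and 9742 CPM in Endo, against 12185 and 18108 CPM at day 0. The BMP4 libraries overlapped day 0, and Endo was lower (-0.75 ± 0.31, adjusted p = 0.0326). Its partner MT-CO3 was lower in all 3, by log2 fold changes of -0.83 ± 0.27 in BMP4 (adjusted p = 0.011), -1.09 ± 0.27 in SMADi (adjusted p = 0.000672) and -1.53 ± 0.28 in Endo (adjusted p = 3.45e-06). MT-ND6, which is read from the opposite strand, had 88.9 and 126 CPM in BMP4, 46.4 and 53.1 CPM in SMADi and 58.4 and 58.6 CPM in Endo, against 117 and 130 CPM at day 0. The BMP4 libraries overlapped day 0, while SMADi (-1.31 ± 0.20, adjusted p = 2.1e-07) and Endo (-1.08 ± 0.20, adjusted p = 6.11e-06) were lower. Besides MT-CYB and MT-CO3, MT-ATP6, MT-ATP8, MT-ND3 and MT-ND4L passed the test in all 3 lineages. MT-ND2 was lower in Endo (-0.84 ± 0.18, adjusted p = 3.54e-05) and stood at -0.29 ± 0.17 in BMP4 and -0.30 ± 0.17 in SMADi (adjusted p = 0.178 and 0.149).

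**Figure D2:**
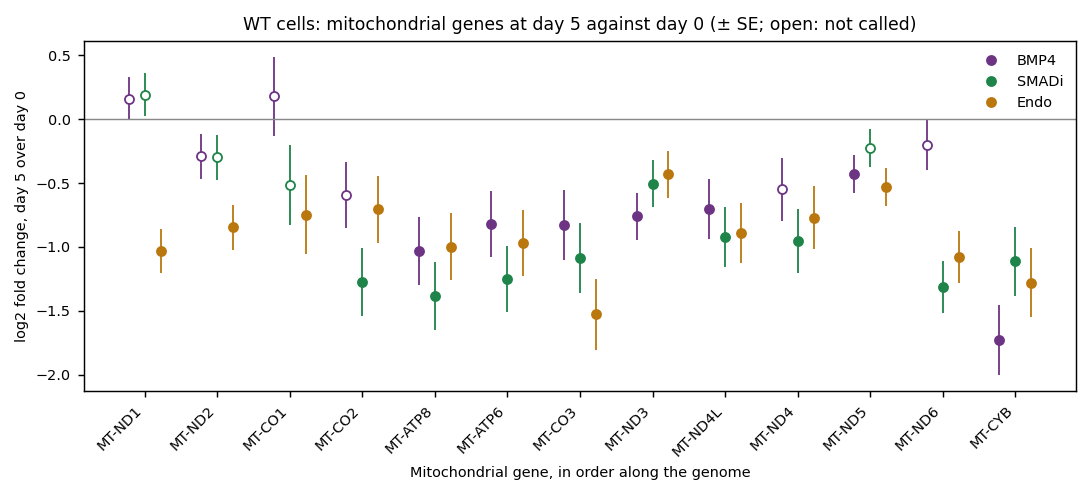
Log2 fold change at day 5 over day 0 in WT cells (vertical axis, with SE) for the 13 mitochondrial genes in their order along the mitochondrial genome, by lineage. Filled points passed the test. MT-CYB lies lowest in BMP4 at -1.73 and MT-CO3 lowest in Endo at -1.53, while MT-ND1 was called in Endo only.

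Complex II, the one complex with no mitochondrial gene, changed subunit by subunit. SDHA, the flavoprotein that oxidises succinate, had 86.7 and 94.2 CPM at day 5 of BMP4, 56.1 and 48.4 CPM in SMADi and 40.2 and 42.2 CPM in Endo, against 108 and 85.2 CPM at day 0. SMADi (-0.88 ± 0.08, adjusted p = 3.44e-14) and Endo (-1.23 ± 0.08, adjusted p = 8.8e-20) were lower, with no overlap. SDHC, a membrane anchor, had 78.7 and 77.9 CPM in BMP4, 51.3 and 57.7 CPM in SMADi and 129 and 126 CPM in Endo, against 69.7 and 59.1 CPM at day 0. It was higher in Endo (0.99 ± 0.08, adjusted p = 6.54e-16) and lower in SMADi (-0.24 ± 0.08, adjusted p = 0.0114), and Endo over SMADi came to 1.23 ± 0.08 (adjusted p = 2.03e-19). The iron-sulphur subunit SDHB was lower in SMADi (-0.84 ± 0.08, adjusted p = 7.66e-13) and higher in BMP4 (0.27 ± 0.08, adjusted p = 0.004), and in Endo its value was -0.12 ± 0.08 (adjusted p = 0.199). The second anchor, SDHD, was lower in all 3, most in Endo (-0.67 ± 0.14, adjusted p = 3.13e-05).

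In complex I, the accessory subunit NDUFB3 had 47.6 and 51.7 CPM at day 5 of Endo, against 26.0 and 21.4 CPM at day 0 (1.07 ± 0.09, adjusted p = 1.15e-15), and NDUFV2, an iron-sulphur subunit of the NADH-binding module, had 50.9 and 56.1 CPM, against 123 and 118 CPM (-1.17 ± 0.09, adjusted p = 2.03e-16). Both pairs were without overlap, so subunits of a single complex changed in opposite directions. By complex in Endo, 9 nuclear genes of complex I were higher and 9 lower of 36 tested, and in complex IV 3 were higher and 7 lower of 17, where 31.2% of all genes were called higher and 32.2% lower. Complex I thus had a smaller share of calls each way than all genes did. In SMADi, 1 of complex I was higher and 17 lower, all 4 of complex II were lower, 1 of complex III was higher and 5 lower of 9, 1 of complex IV was higher and 7 lower, and 1 of complex V was higher and 11 lower of 17, where 26.8% of all genes were called higher and 26.7% lower. COX7A2L, which helps complexes III and IV assemble into supercomplexes, had 94.1 and 90.3 CPM in BMP4, 120 and 131 CPM in SMADi and 121 and 122 CPM in Endo, against 72.1 and 59.5 CPM at day 0. All day 5 libraries lay above day 0 (0.49 ± 0.09, 0.93 ± 0.09 and 0.89 ± 0.09, largest adjusted p = 9.93e-06).

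The 3 genes for subunit c, the rotor ring of the ATP synthase, encode the same mature protein and moved apart. ATP5MC1 had 51.1 and 56.5 CPM in BMP4, 27.6 and 28.5 CPM in SMADi and 34.8 and 36.7 CPM in Endo, against 56.8 and 51.6 CPM at day 0. ATP5MC2 had 210 and 227 CPM in BMP4, 272 and 278 CPM in SMADi and 124 and 134 CPM in Endo, against 192 and 191 CPM at day 0. ATP5MC3 had 150 and 161 CPM in BMP4, 110 and 118 CPM in SMADi and 202 and 207 CPM in Endo, against 182 and 162 CPM at day 0. SMADi was thus higher for ATP5MC2 (0.52 ± 0.09, adjusted p = 2.32e-06) and Endo for ATP5MC3 (0.25 ± 0.07, adjusted p = 0.000889), while ATP5MC1 was lower in SMADi (-0.95 ± 0.13, adjusted p = 5.83e-09) and in Endo (-0.60 ± 0.13, adjusted p = 3.72e-05). The small membrane subunit ATP5MK had 82.1 and 87.7 CPM in Endo and 30.8 and 34.5 CPM in SMADi at day 5, and Endo over SMADi came to 1.38 ± 0.07 (adjusted p = 2.82e-24).

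Set against SMADi directly, Endo cells at day 5 had 44 nuclear members higher and 12 lower (28.6% and 30.9% of all genes), with a median of 0.25 against -0.06 over all genes, and 2 mitochondrial genes lower. In complex I 20 of 36 were higher and 2 lower, and in complex V 9 of 17 were higher and 2 lower, beside the same shares of all genes. SMADi over BMP4 gave 6 nuclear members higher and 45 lower (26.7% and 27.2% of all genes, 53.9% either way), and Endo over BMP4 19 higher and 26 lower (28.7% and 29.6%). These contrasts share libraries with each other and with the comparisons to day 0.

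The days between did not form a straight line. SMADi began with more nuclear members higher than lower: 28 of 91 were higher and 6 lower on day 1 (22.4% and 22.5% of all genes), and 28 higher and 4 lower on day 2 (19.5% and 17.7%), when 9 mitochondrial genes were already lower. By day 4 the nuclear counts were 11 higher and 21 lower (23.9% and 22.7%). In Endo, day 2 had 11 nuclear members higher and 47 lower (28.7% and 28.0%) and 11 mitochondrial genes lower, and day 3 had 45 nuclear members lower (30.2%) and 1 mitochondrial gene lower. The nuclear sums in Endo were 7181 and 7176 CPM on day 2, 6936 and 6951 CPM on day 3 and 7793 and 8033 CPM on day 5. The mitochondrial sums in Endo were 36059 and 34645 CPM on day 2, 48072 and 52565 CPM on day 3 and 27981 and 33465 CPM on day 5, so for the mitochondrial genes day 3 stood above both.

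Tissue isoforms remained at low levels, with 2 exceptions. COX6B2, a testis-type relative of COX6B1 in complex IV, had 3.33 and 3.07 CPM at day 5 of BMP4, 7.06 and 6.04 CPM in SMADi and 0.12 and 0.038 CPM in Endo, against 6.40 and 7.94 CPM at day 0. NDUFA4L2, a hypoxia-induced relative of the complex IV subunit NDUFA4, had 10.8 and 12.0 CPM in BMP4, 1.59 and 0.776 CPM in SMADi and 0.02 and 0.057 CPM in Endo, against 5.10 and 4.74 CPM. Both were lower in Endo, with log2 fold changes of -6.48 ± 0.46 for COX6B2 (adjusted p = 6.2e-19) and -6.90 ± 0.75 for NDUFA4L2 (adjusted p = 7.35e-12), though the size at such levels depends on the prior count. NDUFA4L2 was higher in BMP4 (1.21 ± 0.26, adjusted p = 0.000143). Of their broad counterparts, COX4I1 and NDUFA4 passed edgeR's test in none of the 3 lineages, with log2 fold changes of -0.13 to 0.06 for COX4I1 and -0.20 to -0.11 for NDUFA4. COX6A1, COX6B1, COX7A2, COX7B and COX8A had values between -0.61 and 0.29.

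Genes that build or supply the chain were counted by list in the same comparisons, where 63.4% of all genes were called either way in Endo, 53.5% in SMADi and 45.0% in BMP4. Of 24 glycolysis genes 3 were higher and 19 lower at day 5 of Endo (median -1.29), 2 higher and 20 lower in SMADi (median -1.01) and 4 higher and 8 lower in BMP4. The hexokinase gene HK1 was lower in Endo (-2.60 ± 0.09, adjusted p = 3.64e-31) and SMADi (-2.25 ± 0.09, adjusted p = 4.77e-28). Of 17 genes of mitochondrial DNA replication and transcription 0 were higher and 10 lower in Endo, against 5 higher and 4 lower in SMADi and 3 higher and 2 lower in BMP4, and the helicase gene TWNK stood at -1.71 ± 0.11 in Endo (adjusted p = 2.33e-20). Of 21 genes of mitochondrial RNA processing 4 were higher and 12 lower in Endo, 1 higher and 10 lower in SMADi and 3 higher and 4 lower in BMP4. The list of 19 genes for mitochondrial mass and import gave 4 higher and 9 lower in Endo, 3 higher and 12 lower in SMADi and 3 higher and 8 lower in BMP4, and that of 49 assembly factors 16 and 14, 9 and 19, and 16 and 7. Of 15 nuclear regulators 7 were higher and 4 lower in Endo, 5 and 7 in SMADi and 5 and 3 in BMP4. PPARGC1A, a coactivator known to promote mitochondrial biogenesis, had 40.2 and 39.1 CPM at day 5 of Endo, against 2.40 and 1.97 CPM at day 0 (4.18 ± 0.23, adjusted p = 5.38e-23), in the lineage where all 13 mitochondrial genes were lower. Nuclear copies of mitochondrial DNA, which share reads with the mitochondrial genes, gave 0 higher and 3, 2 and 2 lower of 8 in Endo, SMADi and BMP4. Read against the share of all genes, glycolysis was well above it in Endo and SMADi (91.7% called in each) and nearer in BMP4 (50%). Mass and import genes were above it in SMADi and BMP4 (78.9% and 57.9%) and nearer in Endo (68.4%). Nuclear regulators were above it in all 3 (73.3%, 80% and 53.3% in Endo, SMADi and BMP4). RNA processing was above it in Endo only (76.2%, with 52.4% in SMADi and 33.3% in BMP4). Assembly factors were near it in all 3 (61.2%, 57.1% and 46.9% in Endo, SMADi and BMP4). The genes of mitochondrial DNA replication and transcription were near it or below it (58.8%, 52.9% and 29.4%), and the nuclear copies were below it (37.5%, 25% and 25%). A share called either way does not show direction. In Endo the 10 called genes of mitochondrial DNA replication and transcription were all lower. Their list had a median of -0.46, against -0.05 over all genes. Of all 25821 genes tested there, 8061 were called higher and 8313 lower.

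The clearest difference between edited and unedited cells was in SMADi. Averaged over days 1 to 5, 65 of 91 nuclear members were lower and 3 higher in KO cells, and 66 were lower and 3 higher in ΔATG cells. Among all genes, 24.6% were called lower and 21.0% higher in KO cells, and 24.3% and 20.9% in ΔATG cells. Of the mitochondrial genes 9 were lower in KO cells and 8 in ΔATG cells, and 0 were higher in either. The median log2 fold change was -0.24 for the nuclear and -0.33 for the mitochondrial genes in KO cells, and -0.22 and -0.33 in ΔATG cells. Both lines were set against the same WT libraries.

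The nuclear sum lay below both WT libraries on 5 of 5 SMADi days in both lines, with ratios of means of 0.774 to 0.925 in KO cells and 0.816 to 0.910 in ΔATG cells. The mitochondrial sum was below WT on 2 of 5 days in KO cells (0.554 to 1.01) and on 3 of 5 in ΔATG cells (0.627 to 1.01), and otherwise overlapped. On day 4 the mitochondrial sum was 30971 and 27069 CPM in KO cells and 34905 and 30891 CPM in ΔATG cells, against 51601 and 53256 CPM in WT cells. The nuclear sum was 6346 and 6310 CPM in KO cells and 6470 and 6883 CPM in ΔATG cells, against 8260 and 8095 CPM in WT cells. All 4 edited libraries were thus lower for both genomes on that day, while the WT mitochondrial sum was itself higher than on day 3 (28304 and 44267 CPM) and day 5 (30386 and 37711 CPM).

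By complex the share of lower genes was highest in complex IV. In KO cells 16 of 17 nuclear complex IV genes were lower and 0 higher (median -0.39), 26 of 36 complex I genes were lower and 2 higher (median -0.21), 3 of 4 in complex II were lower, 6 of 9 in complex III were lower, and 13 of 17 in complex V were lower and 1 higher. In ΔATG cells the counts were 16 lower of 17 in complex IV, 26 lower and 2 higher in complex I, 3 lower in complex II, 6 lower in complex III, and 14 lower and 1 higher in complex V. Of all genes 24.6% were called lower in KO cells and 24.3% in ΔATG cells. Among the mitochondrial genes all 7 of complex I were called lower in both lines. MT-CYB and the 3 complex IV genes did not pass the test in either. All 13 had negative values in both lines. In KO cells the medians were -0.37 for complex I and -0.24 for complex IV, and in ΔATG cells -0.35 and -0.26. Whether the complexes differed from each other was not tested. MT-ND4 had 3821 and 3318 CPM in KO cells on day 4 and 4323 and 3724 CPM in ΔATG cells, against 7235 and 7361 CPM in WT cells. Over the 5 days its log2 fold change was -0.43 ± 0.11 in KO cells (adjusted p = 0.00108) and -0.42 ± 0.11 in ΔATG cells (adjusted p = 0.0013). MT-CO1 gave -0.24 ± 0.14 (adjusted p = 0.152) and -0.29 ± 0.14 (adjusted p = 0.0888).

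**Figure D3:**
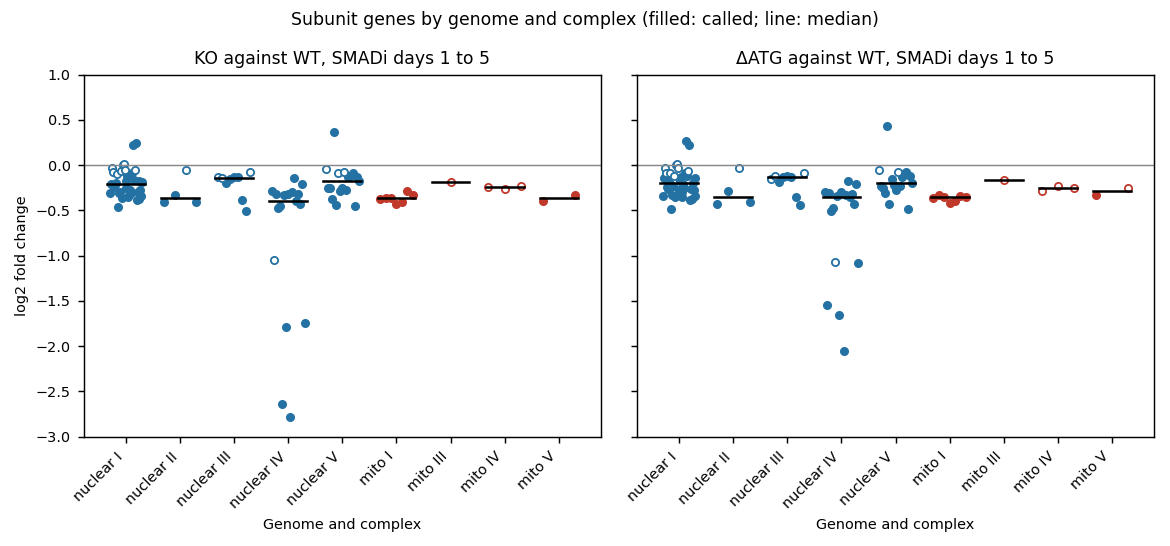
Log2 fold change (vertical axis) of each subunit gene tested, averaged over SMADi days 1 to 5, for KO over WT (left) and ΔATG over WT (right), by genome and complex. Filled points passed the test and bars mark medians. The median of nuclear complex IV is -0.39 in KO cells and -0.35 in ΔATG cells, and the points above 0 that passed are NDUFS4, NDUFS1 and ATP5F1E.

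COX5B, a matrix-side subunit of complex IV, had 87.1 and 88.4 CPM in KO cells on SMADi day 4 and 85.7 and 92.0 CPM in ΔATG cells, against 154 and 142 CPM in WT cells. ATP5PD, a peripheral stalk subunit of the ATP synthase, had 71.1 and 70.0 CPM in KO cells and 71.5 and 76.6 CPM in ΔATG cells, against 117 and 110 CPM in WT cells. COX6A1 had 131 and 134 CPM in KO cells and 135 and 145 CPM in ΔATG cells, against 224 and 219 CPM in WT cells. For all 3 genes every edited library lay below both WT libraries. Over the 5 days the log2 fold changes were -0.47 ± 0.07 for COX5B in KO cells (adjusted p = 3.73e-07) and -0.51 ± 0.07 in ΔATG cells (adjusted p = 7.39e-08). They were -0.45 ± 0.05 for ATP5PD (adjusted p = 2.5e-11) and -0.48 ± 0.05 (adjusted p = 3.77e-12), and -0.46 ± 0.06 for COX6A1 (adjusted p = 2.8e-08) and -0.48 ± 0.06 (adjusted p = 1.1e-08). NDUFA7 and UQCRHL, a near copy of the hinge protein gene UQCRH whose counts are uncertain for that reason, were among the deepest as well, at -0.46 ± 0.09 and -0.50 ± 0.09 in KO cells.

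COX6B2 was among the called members at a low level. It had 2.93 and 3.52 CPM in KO cells on day 3 and 3.68 and 4.14 CPM in ΔATG cells, against 11.3 and 11.7 CPM in WT cells. On day 5 it had 0.61 and 0.30 CPM in KO cells and 0.54 and 0.76 CPM in ΔATG cells, against 7.06 and 6.04 CPM in WT cells. On day 1 all 3 lines were at 0.35 to 0.49 CPM. Over the 5 days the log2 fold change was -1.79 ± 0.18 in KO cells (adjusted p = 1.09e-12) and -1.66 ± 0.18 in ΔATG cells (adjusted p = 6.6e-12). NDUFA4L2 was also lower, at -1.75 ± 0.27 (adjusted p = 1.62e-07) and -1.08 ± 0.25 (adjusted p = 0.000217).

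In each line 3 members were higher, NDUFS4, NDUFS1 and ATP5F1E. NDUFS4, an accessory subunit of complex I whose loss causes Leigh syndrome, had 29.7 and 31.8 CPM on day 1 in KO cells and 29.6 and 29.8 CPM in ΔATG cells, against 24.3 and 24.2 CPM in WT cells. On day 5 it had 36.1 and 36.9 CPM in KO cells and 37.2 and 34.0 CPM in ΔATG cells, against 31.2 and 30.9 CPM in WT cells. Every edited library lay above both WT libraries on these days, and over the 5 days the log2 fold change was 0.24 ± 0.03 in KO cells (adjusted p = 6.59e-09) and 0.22 ± 0.03 in ΔATG cells (adjusted p = 5.84e-08). NDUFS1, the large iron-sulphur subunit of complex I, gave 0.22 ± 0.03 (adjusted p = 8.75e-08) and 0.27 ± 0.03 (adjusted p = 8.42e-10). ATP5F1E, the epsilon subunit of the ATP synthase, gave 0.36 ± 0.11 (adjusted p = 0.00596) and 0.43 ± 0.11 (adjusted p = 0.00113). In complex II, SDHA, SDHB and SDHD were lower in both lines, and SDHC stood at -0.06 ± 0.04 (adjusted p = 0.212) in KO cells and -0.03 ± 0.04 (adjusted p = 0.593) in ΔATG cells.

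**Figure D4:**
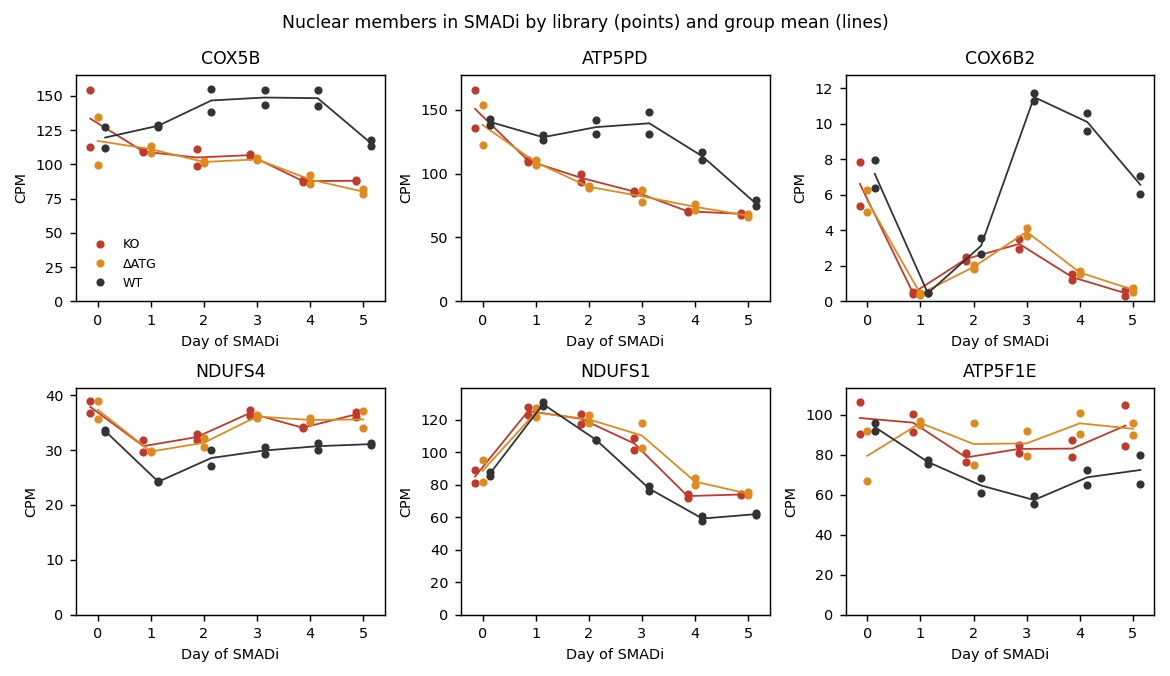
CPM (vertical axis) of 6 nuclear members by day of SMADi, with day 0 at the left, in KO, ΔATG and WT cells. Points are libraries and lines join group means. In the edited lines COX5B and ATP5PD lie below WT on days 1 to 5, COX6B2 reaches at most 4.14 CPM on day 3 against 11.3 and 11.7 CPM in WT cells, and NDUFS4, NDUFS1 and ATP5F1E lie above WT on most days.

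Day by day, nuclear members lower in KO cells numbered 5, 27, 35, 58 and 27 on days 1 to 5, where 5.03%, 7.76%, 16.5%, 19.7% and 19.7% of all genes were called lower. In ΔATG cells they numbered 5, 32, 30, 50 and 34, against 5.81%, 8.95%, 15.1%, 18.6% and 18.4% of all genes. Mitochondrial genes were lower mainly on day 4, with 12 in KO cells and 7 in ΔATG cells, and at most 2 on any other day. On day 3 these were MT-ND6 in KO cells and MT-ND5 and MT-ND6 in ΔATG cells. Without day 4, KO cells had 52 nuclear members lower and 3 higher and 3 mitochondrial genes lower (38.1% of all genes called), and ΔATG cells had 56 lower and 3 higher and 7 mitochondrial genes lower (37.9%). A joint test found that the difference varied with day for 22 nuclear members and for MT-ND2 and MT-ND5 in KO cells (32.7% of all genes), and for 16 nuclear members and MT-ND5 in ΔATG cells (29.5%).

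The edited libraries also differed from WT in lineage markers on these days. On day 4 the neuroectoderm markers summed to 345 to 356 CPM in KO cells and 339 CPM in ΔATG cells, against 121 to 123 CPM in WT cells. The stem cell markers summed to 815 to 816 CPM in KO cells and 853 to 868 CPM in ΔATG cells, against 1239 to 1261 CPM in WT cells. Definitive endoderm markers stood at 27.1 to 28.8 CPM in KO cells and 19.6 to 20.0 CPM in ΔATG cells, against 6.09 to 6.44 CPM in WT cells. The part of these shifts in the respiratory chain differences was not tested. LNCPRESS1 was at 0.0375 to 0.124 CPM in KO cells and 0.105 to 0.113 CPM in ΔATG cells on day 4, against 5.95 to 6.20 CPM in WT cells, so on that day the transcript was low in both edited lines.

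Set against each other in SMADi, ΔATG and KO cells gave 0 called members of 104 by edgeR's quasi-likelihood test, where 1.07% of all genes were called. At an unadjusted p under 0.05 there were 3 nuclear members and 0 mitochondrial genes, and DESeq2 called 0. The median difference of ΔATG over KO cells was 0.00 for the nuclear and 0.01 for the mitochondrial members. COX5B differed by -0.04 ± 0.07 and NDUFS4 by -0.02 ± 0.03 (adjusted p = 1 for both).

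Outside the respiratory chain, other genes of mitochondria and energy metabolism were counted by list in SMADi, where 24.6% of all genes were called lower and 21.0% higher in KO cells, and 24.3% and 20.9% in ΔATG cells. Of 19 genes for mitochondrial mass and import, 17 were lower and 0 higher in KO cells (median -0.23) and 18 were lower and 0 higher in ΔATG cells (median -0.18). The porin gene VDAC1 was at -0.43 and -0.40 and the ADP/ATP carrier gene SLC25A6 at -0.42 in both. Of 24 glycolysis genes 20 were lower and 1 higher in KO cells (median -0.38), and 19 were lower and 1 higher in ΔATG cells (median -0.34). The lactate exporter SLC16A3 was at -1.83 and -1.42, and the glucose transporter SLC2A1 was higher, at 0.35 and 0.48. Among 49 assembly factors 20 were lower and 4 higher in KO cells and 21 lower and 6 higher in ΔATG cells. Among 21 genes of mitochondrial RNA processing 7 were lower and 0 higher in each line, among them LRPPRC, which stabilises mitochondrial mRNA, at -0.25 and -0.22. Of 17 genes of mitochondrial DNA replication and transcription 5 were lower and 6 higher in KO cells and 4 lower and 5 higher in ΔATG cells, with TFAM, which packages and transcribes mitochondrial DNA, higher at 0.21 and 0.31. Of 15 nuclear regulators 5 were lower and 3 higher in KO cells and 5 lower and 1 higher in ΔATG cells, and of 8 nuclear copies of mitochondrial DNA 2 were lower and 0 higher in each line. Against 45.6% and 45.2% of all genes called either way, assembly factors stood at 49.0% in KO cells and 55.1% in ΔATG cells, nuclear regulators at 53.3% and 40.0%, RNA processing at 33.3% in both and nuclear copies at 25% in both.

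CHCHD2, a nuclear gene for a mitochondrial protein that is known to bind complex IV and to act on COX4I2 transcription, set the edited lines apart. It was at 0 to 0.0389 CPM in ΔATG libraries of SMADi and at 0 in both at day 0, which set it near absence in that line. On SMADi day 4 it had 18.5 and 18.0 CPM in KO cells and 0 in both ΔATG libraries, against 90.1 and 84.8 CPM in WT cells. KO cells were lower at day 0 too (-0.55 ± 0.10, adjusted p = 0.000331), with 43.0 and 48.1 CPM against 65.0 and 68.1 CPM in WT cells. COX4I2 itself reached at most 2.11 CPM in any library of the differentiation arm, and the part of CHCHD2 in the respiratory chain differences was not tested.

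In Endo fewer members were called, and most of these were lower. The counts depended on the fit. Over both genomes they were 14 in KO cells and 37 in ΔATG cells. With only the compared libraries fitted they were 38 and 67. The other settings gave 58 to 84 and 66 to 88 in SMADi, so for ΔATG cells the ranges met. KO cells had 12 nuclear members lower and 1 higher (8.04% and 6.76% of all genes) and 1 mitochondrial gene lower. ΔATG cells had 27 lower and 5 higher (17.2% and 16.6%) and 5 mitochondrial genes lower, namely MT-ND1, MT-ND2, MT-ND5, MT-CYB and MT-ATP6. MT-ND2 was the gene lower in KO cells (-0.25 ± 0.08, adjusted p = 0.0198), and in ΔATG cells it stood at -0.30 ± 0.08 (adjusted p = 0.00151). The nuclear sum was below WT on 4 of 5 days in both lines, with ratios of 0.896 to 0.995 in KO cells and 0.880 to 1.00 in ΔATG cells. The mitochondrial sum was below on 3 of 5 days in both, with ratios of 0.875 to 0.913 in KO cells and 0.665 to 1.01 in ΔATG cells.

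NDUFS4 was higher in Endo too. On day 5 it had 40.6 and 39.3 CPM in KO cells and 36.8 and 36.4 CPM in ΔATG cells, against 30.4 and 32.3 CPM in WT cells, with log2 fold changes over the 5 days of 0.32 ± 0.03 in KO cells (adjusted p = 2e-11) and 0.32 ± 0.03 in ΔATG cells (adjusted p = 6.04e-12). NDUFS1 parted the lines: on day 2 it had 80.0 CPM in both ΔATG libraries, against 98.1 CPM in both KO libraries and 101 and 102 CPM in WT libraries. Over the 5 days it was lower in ΔATG cells than in WT cells (-0.23 ± 0.03, adjusted p = 8.17e-08) and than in KO cells (-0.21 ± 0.03, adjusted p = 3.19e-06). SDHD did the reverse, with 44.0 and 44.7 CPM in ΔATG cells on day 3, against 28.7 and 32.7 CPM in KO cells and 30.3 and 32.0 CPM in WT cells. ΔATG over KO cells came to 0.24 ± 0.06 for SDHD (adjusted p = 0.00295), and 4 nuclear members were higher and 4 lower in that comparison (8.71% and 9.65% of all genes). The endoderm markers on day 5 summed to 8343 to 9107 CPM in ΔATG cells and 13160 to 13232 CPM in KO cells, against 13365 to 13761 CPM in WT cells, and their part in these differences was not tested.

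In BMP4 the calls against WT were few and nuclear. KO cells had 15 of 91 nuclear members higher and 6 lower (13.3% and 15.4% of all genes). ΔATG cells had 6 higher and 1 lower (8.19% and 8.78%). In both lines the share called higher was thus near that of all genes, and the share called lower was below it. No mitochondrial gene was called by edgeR in either line, with 1 in KO cells and 0 in ΔATG cells at an unadjusted p under 0.05 and 0 in both by DESeq2. Both sums overlapped WT on all 5 days in both lines when the letters were pooled. Set against the WT library of the same letter, the KO nuclear sum was above WT in both letters on days 3, 4 and 5, by up to 1.12-fold, and the KO mitochondrial sum on days 4 and 5, by 1.17-fold to 1.27-fold. The ΔATG mitochondrial sum was below WT in both letters on days 1, 3, 4 and 5, with ratios of 0.816 to 0.961, and above it on day 2 (1.01 and 1.06). With the letter as a block, KO cells had 34 nuclear members higher and 6 lower and 1 mitochondrial gene higher (33.9% of all genes), and ΔATG cells 10 nuclear members higher and 6 lower (22.5%). The KO count also moved with single libraries, from 21 to 13 without WT day 3 a or KO day 3 b, to 12 without WT day 4 a or KO day 4 b, and to 32 without WT day 4 b. ΔATG over KO gave 3 nuclear members higher and 4 lower (8.67% and 4.92% of all genes) and 1 mitochondrial gene lower, MT-ND5, and with the letter as a block 3 higher and 37 lower and 12 mitochondrial genes lower (21.9% of all genes). COX7C, a small complex IV subunit, had 263 and 309 CPM in KO cells on day 5 and 226 and 272 CPM in ΔATG cells, against 207 and 223 CPM in WT cells. Its log2 fold change over the 5 days was 0.33 ± 0.04 in KO cells (adjusted p = 1.24e-08) and 0.17 ± 0.04 in ΔATG cells (adjusted p = 0.00202), and ΔATG over KO was -0.15 ± 0.04 (adjusted p = 0.0113). COX6B2 was higher in both lines here, by 1.19 ± 0.11 (adjusted p = 4.34e-14) and 0.89 ± 0.11 (adjusted p = 1.85e-09), where in SMADi it was lower. NDUFS4 was higher once more, by 0.15 ± 0.03 (adjusted p = 0.000125) and 0.12 ± 0.03 (adjusted p = 0.00293). The divergent transcript NDUFA6-DT was lower in KO cells (-0.78 ± 0.10, adjusted p = 1.32e-08) and stood at -0.15 ± 0.10 in ΔATG cells (adjusted p = 0.334). Fibroblast-type markers on day 5 summed to 670 to 771 CPM in KO cells and 831 to 971 CPM in ΔATG cells, against 1320 to 1343 CPM in WT cells, and their part was not tested.

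At day 0, before any treatment, few members were called. In KO cells NDUFA9, an accessory subunit of complex I, was lower, with 21.7 and 18.5 CPM against 24.9 and 25.3 CPM in WT cells (-0.31 ± 0.10, adjusted p = 0.0447), and it was the only member called of 104 (4.89% of all genes, 1.86% higher and 3.03% lower). In ΔATG cells 1 nuclear member was higher and 3 lower (2.3% and 3.2% of all genes, 5.5% either way). ΔATG over KO cells gave 1 nuclear member higher and 1 lower (2.15% and 1.91% of all genes, 4.07% either way). The higher one in both was COX7A1, a heart and muscle isoform of a complex IV subunit, at 0.51 and 0.44 CPM in ΔATG cells, against 0.15 and 0.082 CPM in KO cells and 0.14 and 0.088 CPM in WT cells. SDHA had 74.6 and 79.0 CPM in ΔATG cells, against 97.2 and 114 CPM in KO cells and 108 and 85.2 CPM in WT cells. ΔATG lay below both, at -0.33 ± 0.08 against WT (adjusted p = 0.00545) and -0.46 ± 0.08 against KO (adjusted p = 8.03e-05). SDHB was lower as well (-0.28, adjusted p = 0.0298), as was ATP5MC3 (-0.27, adjusted p = 0.00693). No mitochondrial gene was called by edgeR or DESeq2 in either line, with 1 in KO cells and 2 in ΔATG cells at an unadjusted p under 0.05. In ΔATG cells 76 of 91 nuclear and all 13 mitochondrial values were negative (medians -0.08 and -0.22). In KO cells 26 nuclear and 11 mitochondrial values were negative. The ΔATG nuclear sum was 7547 and 8272 CPM, below 8585 and 8308 CPM in WT cells. The KO nuclear sum and both mitochondrial sums overlapped WT. With the letter as a block, KO cells had 2 nuclear members higher and 2 lower (9.86% of all genes) and ΔATG cells 1 higher and 11 lower with 1 mitochondrial gene lower (9.6%), and ΔATG over KO gave 1 higher and 17 lower (8.32%). The counts rested on single libraries. That of KO cells was 0 without either WT library or KO b and 3 without KO a, and that of ΔATG cells was 0 without WT a, 7 without WT b and 1 without ΔATG a. ΔATG over KO gave 17 without KO a, 9 without ΔATG b, 1 without ΔATG a and 0 without KO b.

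In the overexpression arm, the constructs were compared with vector cells of the same stage. LNCPRESS1 had 32.3 and 53.8 CPM in early lncPRESS1 cells, 144 to 156 CPM in those labelled lncPRESS1DATG and 133 to 185 CPM in those labelled lncSIRP, against 29.0 and 30.2 CPM in early vector cells, so the level of the gene did not follow the lncPRESS1 label. What lncSIRP is and which days the stages cover is not given in the sources used here. The mitochondrial sum in lncSIRP cells was 51209 and 49256 CPM early, 36004 and 33515 CPM at the middle stage and 46620 and 53026 CPM late. In vector cells it was 35914 and 29071 CPM, 30367 and 26815 CPM, and 40646 and 43705 CPM. The lncSIRP libraries lay above vector at all 3 stages, by 1.55-fold, 1.22-fold and 1.18-fold. The cells labelled lncPRESS1DATG were above vector early (1.38-fold) and below it at the middle (0.767-fold) and late (0.715-fold) stages, and lncPRESS1 cells overlapped vector at all 3.

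**Figure D5:**
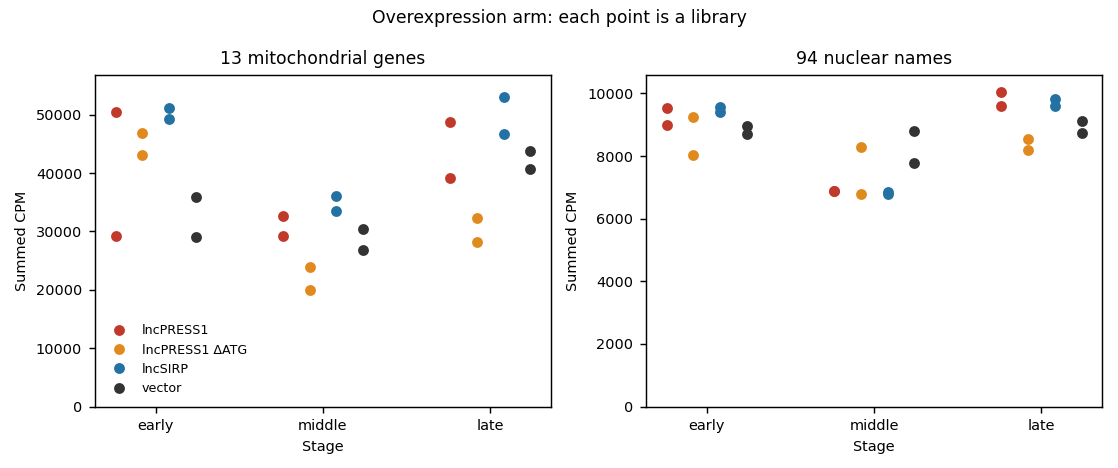
Summed CPM (vertical axis) of the 13 mitochondrial genes (left) and the 94 nuclear names (right) by stage in the overexpression arm; each point is a library. The lncSIRP points lie above vector for the mitochondrial sum at each stage, and the nuclear sums of the middle lncPRESS1 and lncSIRP libraries lie between 6801 and 6872 CPM, below the other libraries except 1 of lncPRESS1 ΔATG.

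Averaged over the stages and set against the shared vector libraries, lncSIRP cells had 9 mitochondrial genes higher and 0 lower, with 14 nuclear members higher and 20 lower (50.1% of all genes called). The lncPRESS1 cells had 1 mitochondrial gene higher and 1 lower, with 10 nuclear members higher and 16 lower (45.8%). The lncPRESS1DATG cells had 3 nuclear members higher and 19 lower (25.8%) and 0 mitochondrial genes called, with 1 at an unadjusted p under 0.05 and 0 by DESeq2. The lncPRESS1DATG count of 22 was 13 without its late library a and 14 without vector library b of the early or the middle stage. MT-ND1 had 2912 and 2657 CPM in early lncSIRP cells and 2419 and 2769 CPM in late ones, against 1669 and 1360 CPM in early and 1873 and 2111 CPM in late vector cells. Each lncSIRP library lay above the vector libraries of its stage (0.63 ± 0.09, adjusted p = 2.57e-05), and lncPRESS1 gave 0.40 ± 0.09 (adjusted p = 0.0018). MT-ND6 was lower in lncPRESS1 cells (-0.53 ± 0.11, adjusted p = 0.00054), opposite to MT-ND1.

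By stage, lncPRESS1DATG cells had 14 nuclear calls early, 2 at the middle stage and 13 late (6129, 1714 and 4926 of all 23300 genes). In lncPRESS1 and lncSIRP cells most nuclear calls came from the middle stage. There 50 members were lower and 8 higher in lncPRESS1 cells (28.9% and 29.3% of all genes) and 49 lower and 10 higher in lncSIRP cells (29.8% and 30.6%), and these are the libraries whose stem cell markers were low and collagen markers high. ATP5PD had 57.7 and 63.2 CPM in middle lncPRESS1 cells, against 142 and 157 CPM in middle vector cells, but 196 and 230 CPM in early lncPRESS1 cells, against 170 and 173 CPM in early vector cells. Its averaged value of -0.23 ± 0.06 (adjusted p = 0.00418) therefore held opposite stages. Without the middle stage lncPRESS1 cells had 10 nuclear members higher and 1 lower with 1 mitochondrial gene each way (15.4% of all genes), lncSIRP cells 20 higher and 2 lower with 8 mitochondrial genes higher and 1 lower (27.0%), and lncPRESS1DATG cells 2 higher and 11 lower with 0 mitochondrial genes (26.5%). The mitochondrial counts also turned on the early stage. Without it, lncPRESS1DATG cells had 10 of 13 mitochondrial genes lower and 0 higher, with a median of -0.45 (21.7% of all genes called), and lncSIRP cells 3 higher and 0 lower, with a median of 0.23 (54.4%). Without the late stage the counts were 0 in lncPRESS1DATG cells (20.6%) and 11 higher in lncSIRP cells (48.8%). The joint test found that the difference varied with stage for 8 mitochondrial genes in lncPRESS1DATG cells (16.4% of all genes). By stage these cells had 3 mitochondrial genes higher and 1 lower early (11.3% and 15.0% of all genes) and 4 lower late (11.1%), so the averaged count of 0 held opposite stages. NDUFA9 was higher in lncPRESS1 (0.35 ± 0.08, adjusted p = 0.00275) and lncSIRP cells (0.40 ± 0.08, adjusted p = 0.000806), and on the late stage it had 62.8 and 67.9 CPM and 59.2 and 59.6 CPM in these, against 38.7 and 40.7 CPM in vector cells.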

How the data were processed

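Estimated counts per gene (expected counts, scaled for length), as deposited by the authors, were used for 120 libraries. Per the labels, RNA was selected by poly(A) and made into stranded libraries, and per the submitters' processing notes the build was GRCh38. Which aligner, quantifier and annotation made them is not given in the sources used here. Mitochondrial mRNAs carry short tails, so in poly(A) libraries tail state and RNA amount cannot be told apart. Counts were rounded to whole numbers.

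Each arm was fitted as one model with a coefficient for each of its groups (25821 genes and 48 residual degrees of freedom for differentiation, 23300 genes and 12 for overexpression) after filterByExpr and TMM scaling, with edgeR 4.0.16 (limma 3.58.1, R 4.3.3) and its quasi-likelihood test. p-values were adjusted by Benjamini-Hochberg over all genes tested, with a call at an adjusted p under 0.05. Edited lines were averaged over days 1 to 5, and constructs over the 3 stages. The SE is the log2 fold change divided by the square root of F. Log2 fold changes were taken from the coefficients of the fit, at edgeR's default prior count, and log2 CPM used a prior count of 2. CPM were TMM-scaled, and levels between genes were divided by the median length of a gene's coding transcripts in GENCODE 29. Of the 94 nuclear names 91 were tested in each arm, as were all 13 mitochondrial genes; COX7B2, ATP5MGL and COX8C were too low in the differentiation arm, and COX7B2, ATP5MGL and UQCRB-AS1 in the overexpression arm.

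Named genes were the 13 mitochondrial genes, per comparison up to 3 nuclear members with the highest and 3 with the deepest called change at a mean log2 CPM of at least 1, fixed isoform pairs, subunit c and complex II genes, the highest-level gene of each complex, and up to 2 called genes each way of the other lists with CHCHD2, TFAM, PPARGC1A and LRPPRC. The members and lists were chosen with earlier results of these data known. Letters a and b paired libraries in the day 0 and BMP4 set, where deviations of the same letter correlated over 0.1 in 18 of 18 pairs of lines (0.179 to 0.743). In SMADi this held in 0 of 15 pairs, in Endo in 1 of 15 and in the overexpression arm in 4 of 18. Alternatives were DESeq2 1.42.0 size factors and its Wald test, no low-count filter, a letter block, fits on the compared libraries only, totals without mitochondrial RNA, and each library left out. The fits were tested on simulated counts. Tables and figures used Python 3.11.15, pandas 2.3.3 and matplotlib 3.10.9. Promoters were from RefSeq (GRCh38.p14), and the NRF1 and YY1 cores of 8 letters were chosen after longer forms had been counted. At 38298603 to 71219834 counts per library, 2 libraries per group limit the precision.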

Additional observations from a re-analysis of the deposited data

Results flagged for a closer look

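For 3 nuclear members the difference between KO and WT cells in SMADi not only varied with the day but was called in opposite directions on different days. The joint test of a difference between days (edgeR's quasi-likelihood test, adjusted over all genes) gave an adjusted p of 0.000445 for ATP5PB, a peripheral stalk subunit of the ATP synthase. It was higher in KO cells on day 5 (log2 fold change 0.24 ± 0.07, adjusted p = 0.00606) and lower on day 2 (-0.23 ± 0.07, adjusted p = 0.0186). NDUFB3, of complex I, gave a joint adjusted p of 9.48e-05, and was higher on day 5 (0.40 ± 0.09, adjusted p = 0.000301) and lower on day 2 (-0.27 ± 0.09, adjusted p = 0.0253). ATP5MK, a small membrane subunit of the ATP synthase, gave a joint adjusted p of 2.78e-05, and was higher on day 5 (0.21 ± 0.07, adjusted p = 0.0182) and lower on day 4 (-0.43 ± 0.07, adjusted p = 1.36e-06).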

How the results depend on the processing

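The SMADi counts of 77 members called in KO cells and 77 in ΔATG cells ranged over 72 to 79 and 72 to 82 when each library was left out, and over 58 to 84 and 66 to 88 under the other settings. The count of 0 for ΔATG over KO in SMADi was 0 in every refit made. Of 331 called values of named members, 324 kept their call under DESeq2 size factors, 322 under DESeq2's Wald test, 310 with no filter on low counts and 330 with a replicate block over the whole arm, and 290 of 324 kept it when only the compared libraries were fitted. The block for the letters in the day 0 and BMP4 libraries, chosen after seeing the data, kept 158 of 158, and totals without mitochondrial RNA, which apply to nuclear members only, kept 255 of 257. Leaving out each library kept 3493 of 3828 values, with 335 calls lost and 0 changes of sign. Without the middle stage 23 of 47 values in the overexpression arm kept their call and 2 changed sign: NDUFA4L2 in lncPRESS1 cells at 0.20 and ATP5F1E in lncSIRP cells at -0.027.

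Counts that moved by more than 1.5 times were these. With the replicate block for day 0 and BMP4 libraries there were 51 members for WT day 5 of BMP4 (33 without it), 4 for KO and 13 for ΔATG at day 0 (1 and 4), 41 for KO and 16 for ΔATG in BMP4 (21 and 7), and 18 and 52 for ΔATG over KO at day 0 and in BMP4 (2 and 8). The arm-wide replicate block gave 17 for ΔATG over KO in BMP4 and 13 in Endo (8 each). Fitting only the compared libraries gave 0 for KO, 0 for ΔATG and 0 for ΔATG over KO at day 0, 9, 1 and 3 in BMP4, 38, 67 and 24 in Endo (14, 37 and 8), and 13 for lncPRESS1DATG (22). KO at day 0 also had 0 under DESeq2 size factors, its Wald test and no filter, and with no filter ΔATG in BMP4 had 4 and KO in Endo 9. Without the middle stage lncPRESS1 had 13 (28) and lncPRESS1DATG 13, as it did without the late stage. The cause of these moves was not tested.

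Leaving out each library gave 26 to 31 for WT day 5 over day 0 in BMP4, 52 to 60 in SMADi (61) and 44 to 52 in Endo (60), 41 to 52 for Endo over SMADi, 37 to 47 for Endo over BMP4 and 39 to 65 for SMADi over BMP4. It gave 0 to 3 for KO and 0 to 7 for ΔATG at day 0, 12 to 32 and 5 to 9 in BMP4, 10 to 15 and 31 to 40 in Endo, and for ΔATG over KO 0 to 17 at day 0, 5 to 28 in BMP4 and 7 to 9 in Endo. For lncPRESS1 it gave 24 to 37, for lncPRESS1DATG 13 to 32 and for lncSIRP 32 to 40. For ΔATG over KO, the libraries that moved the count most were KO day 0 a (17) and KO BMP4 day 3 a (28). On SMADi day 4 the ratio of KO to WT for the nuclear sum was 0.774, and as a share of counts it was 0.807, or 0.784 with mitochondrial RNA left out of the total. Genes under 1 CPM, among them most tissue isoforms, rest on few counts.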
